A study of Mus musculus with 16 samples.

Results

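The transcripts of 9 apoptosis genes were followed in erythroblasts of the mouse foetal liver. They are the survival genes Bcl2l1, Bcl2 and Mcl1, the pore-forming effectors Bax and Bak1, the BH3-only genes Bcl2l11, Bbc3 and Pmaip1, and the death receptor gene Fas. All 9 were found by symbol among the 55416 genes of the count table, and all 16 libraries were used. The libraries came from embryos at E13.5, in mid-gestation, of 3 Nprl3 genotypes, namely 4 wild-type (WT), 2 heterozygous (Het) and 2 Nprl3-/- (KO) embryos. Each embryo gave 1 library of stage 1 (S1) cells, which hold early erythroid progenitors, and 1 of stage 3 (S3) cells, which are basophilic erythroblasts, sorted by the surface markers Ter119 and CD71. The KO allele lacks the Nprl3 promoter in every cell of the embryo, and leaves the α-globin enhancers in the body of the gene in place. Nprl3 encodes a subunit of GATOR1, a complex that restrains the growth kinase complex mTORC1. WT embryos 0 and 8, both Het embryos and KO embryo 9 were male, and WT embryos 1 and 5 and KO embryo 2 were female. The RNA of each sorted sample was amplified before the library was made, and nothing was treated. Only 1 library was made per embryo and stage.

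In mm39 the survival genes lie at chr2:152622588-152673648 (Bcl2l1), chr1:106465908-106642004 (Bcl2) and chr3:95566099-95570487 (Mcl1), and the effectors at chr7:45111121-45116322 (Bax) and chr17:27238784-27247983 (Bak1). The BH3-only genes lie at chr2:127967958-128004467 (Bcl2l11), chr7:16042318-16052130 (Bbc3) and chr18:66591604-66598636 (Pmaip1), and Fas at chr19:34268066-34305172.

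Mitochondrial apoptosis is decided by the balance of the BCL2 protein family. The survival proteins BCL-XL (from Bcl2l1), BCL2 and MCL1 hold the effectors BAX and BAK in check, and the BH3-only proteins BIM (Bcl2l11), PUMA (Bbc3) and NOXA (Pmaip1) release them by binding the survival proteins through a short helix, the BH3 domain. Erythroid precursors depend on erythropoietin for survival, and BCL-XL is the family member best known for keeping late erythroblasts alive. FAS is a receptor on the cell surface that starts apoptosis through caspase 8, and its ligand is known to limit the number of early erythroblasts.

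The core of the BH3 domain is shown here because genes of the survival, effector and BH3-only groups all hold a stretch of this kind. A leucine codon, 3 further codons, a glycine or alanine codon and an aspartate codon, with an aspartate, glutamate or glycine codon after it, were searched for in the reading frame of the reference transcript in GENCODE vM39. Each of the 7 genes below held 1 match. None of the 3 coding transcripts of the BH3-only gene Pmaip1 matched this pattern, nor did those of Fas, which is outside the BCL2 family. The 30 bases are given 5′ to 3′ on the gene's own strand with GRCm39 positions, all in coding exons, and the capitals mark the leucine codon and the pair of codons before and including the aspartate.
Bcl2l1, chr2:152671620-152671649, minus strand: caagcgCTGagagaggcaGGCGATgagttt
Bcl2, chr1:106640308-106640337, minus strand: ctgaccCTCcgccgggctGGGGATgacttc
Mcl1, chr3:95566741-95566770, plus strand: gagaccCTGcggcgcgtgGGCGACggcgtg
Bax, chr7:45115424-45115453, minus strand: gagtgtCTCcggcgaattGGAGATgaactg
Bak1, chr17:27241508-27241537, minus strand: cggcagCTTgctctcatcGGAGATgatatt
Bcl2l11, chr2:127989064-127989093, plus strand: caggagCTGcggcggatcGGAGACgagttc
Bbc3, chr7:16047692-16047721, plus strand: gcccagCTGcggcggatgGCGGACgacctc

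The libraries held 20666044 to 37609502 counts each, and globin genes took 0.0738% to 1.07% of them at S1 and 10.0% to 11.8% at S3. Levels below are in CPM, counts relative to the size of the library, scaled by the trimmed mean of M-values (TMM) over all 16 libraries, and levels of different genes were compared as CPM per kilobase of exon (RPKM). Nprl3 itself stood at 0.309 to 0.657 CPM in the KO libraries at S1, against 21.02 to 33.8 in WT and 12.4 to 12.6 in Het. At S3 it stood at 109.8 to 117 CPM in KO, below the 143 to 214 in WT and the 126 to 153 in Het. The count takes in all exons of the gene, and spliced transcripts that begin at the α-globin enhancers inside Nprl3 are known in erythroid cells, so at S3 it does not measure the loss of the promoter. The sample labels also name an embryonic stem cell line, while the 5 stem cell marker genes summed to at most 0.110 CPM in any library. The 9 erythroid marker genes summed to 1423 to 8848 CPM at S1 and to 157295 to 210104 CPM at S3. The S1 libraries of WT embryos 0 and 8, the male WT embryos, stood apart from the rest. Their erythroid marker sums were 8848 and 8791 CPM and their sums over 9 neutrophil marker genes 196 and 120 CPM, against 1423 to 3079 and 1105 to 1651 CPM in the other S1 libraries. At S3 the neutrophil markers summed to 1.11 to 13.7 CPM, and the 5 lymphoid marker genes to 8.07 to 28.7 CPM at S1 and 0.0724 to 0.678 CPM at S3. Between the stages in WT, all 9 neutrophil markers were called lower at S3 (median log2 fold change -7.93), as were the 4 lymphoid markers tested (median -6.57). Of 13 macrophage markers 10 were called higher and none lower at S3 in WT (median 1.91), with sums of 33.0 to 56.3 CPM at S1 and 53.4 to 105.7 CPM at S3, and of 9 hepatoblast markers 3 were called higher (median 1.34). Markers of other cells thus moved with the genes that were lower at S3 and with those that were higher, and their part in the stage differences below was not tested. Without WT embryos 0 and 8, the stage differences of WT on the log2 scale were 6.13 for Bcl2l1, 1.90 for Mcl1 and 2.41 for Bbc3, all called by edgeR (adjusted p = 1.05e-05, 0.000369 and 0.00065), and -0.0719 for Bax and -0.42 for Bak1, neither called. For Bcl2 the remaining WT embryos 1 and 5 held no count at S3, so that no size can be given. In bulk libraries such as these, fewer cells of a type and less RNA per cell cannot be told apart.

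At S1 in WT, Bax had the highest mean level per length of the 9 genes, with 49.2 ± 9.03 RPKM (SD, n = 4), and Mcl1 was next with 37.9 ± 15.1 RPKM. The libraries of these genes overlapped. Bcl2l1 followed with 5.44 ± 3.36 RPKM, below every Mcl1 library. Bcl2l11 (1.74 ± 0.600 RPKM), Bbc3 (1.31 ± 0.270 RPKM) and Pmaip1 (1.18 ± 0.0758 RPKM) came next and overlapped one another. Bak1 (0.207 ± 0.101 RPKM), Bcl2 (0.204 ± 0.113 RPKM) and Fas (0.103 ± 0.0422 RPKM) were lowest, and neighbours among these overlapped too.

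At S3 in WT the order was led by Bcl2l1, with 269 ± 67.3 RPKM (SD, n = 4), and every WT library of it stood above every library of Mcl1, at 130.2 ± 34.2 RPKM. Bax followed with 45.9 ± 8.05 RPKM and Bbc3 with 6.37 ± 0.914 RPKM, and neither overlapped a neighbour in the order. Bcl2l11 (1.03 ± 0.127 RPKM) and Pmaip1 (0.716 ± 0.242 RPKM) overlapped. Bak1 (0.151 ± 0.0956 RPKM) lay below both, then Fas (0.0417 ± 0.0424 RPKM) and Bcl2 (0.0141 ± 0.0281 RPKM), and neighbours among these 3 overlapped.

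**Figure D1:**
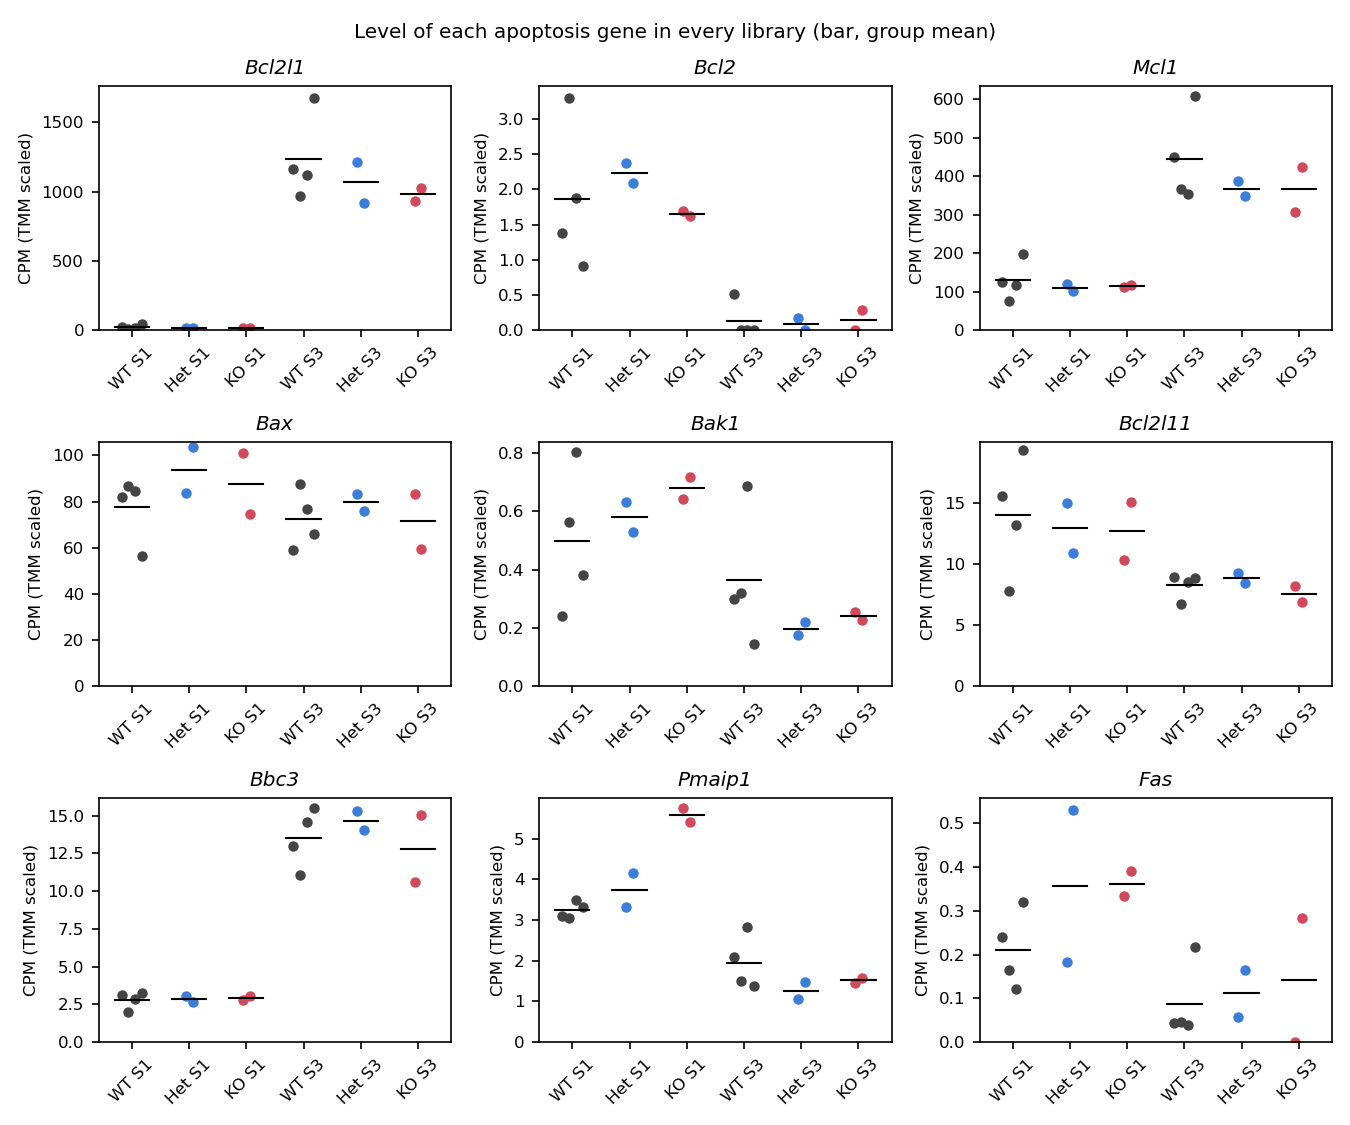
Level of each of the 9 genes in CPM (vertical axis, linear and starting at 0, with its own range in each panel) in every library, by genotype and stage, where a point is 1 library and a bar the group mean. Bcl2l1, Mcl1 and Bbc3 stood higher in every S3 library than in any S1 library, and the KO points of Pmaip1 and Fas at S1 lay above the WT points.

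S3 and S1 libraries were first compared within each genotype, to see how the balance of survival and death genes moved with maturation. In WT, 8 of the 9 genes were tested and 6 were called by the quasi-likelihood test of edgeR with Benjamini-Hochberg adjustment, 3 of them higher at S3 and 3 lower. The same test called 65.6% of 13514 genes, 30.6% higher and 35% lower, so that a call in this comparison was common. The median log2 fold change was -0.25 over the 8 genes and -0.08 over all genes tested. In KO, 5 of 8 were called (3 higher and 2 lower), beside 53% of 13446 genes (24.7% higher and 28.4% lower). In Het, 7 of 8 were called (3 higher and 4 lower), beside 75.9% of 13085 genes (36.3% higher and 39.6% lower). The 3 higher genes were Bcl2l1, Mcl1 and Bbc3 in each genotype. Het and KO had 2 embryos each, and Fas was too low to be tested in any of these comparisons.

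Bcl2l1 was the member with the largest difference between stages. At S1 it stood at 23.2, 11.8, 17.8 and 47.0 CPM in WT embryos 0, 1, 5 and 8, at 17.3 and 15.2 CPM in Het embryos 3 and 4, and at 13.4 and 15.6 CPM in KO embryos 2 and 9. At S3 the same embryos gave 1166, 972, 1118 and 1679.8 CPM in WT, 1216 and 919 CPM in Het, and 931 and 1029 CPM in KO. Every S3 library was far above every S1 library, and WT embryo 8 was the highest of its genotype at both stages. Bcl2l1 thus rose by 5.66 on the log2 scale in WT (standard error, SE, 0.43, adjusted p = 2.2e-06 by edgeR), a ratio of 50.5. It was 6.06 in KO (SE 0.21, edgeR adjusted p = 0.000172) and 6.04 in Het (SE 0.17, edgeR adjusted p = 1.17e-20). Counts per gene do not separate the long survival form of Bcl2l1 from its short, death-promoting splice form.

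Mcl1 encodes a survival protein that is made and degraded quickly. Its level at S1 was 125.6, 75.5, 117.5 and 199 CPM in WT embryos 0, 1, 5 and 8, 119.9 and 101 CPM in Het and 113 and 118 CPM in KO. At S3 it was 449.9, 367, 354 and 608 CPM in the same WT embryos, 387 and 348 CPM in Het and 308 and 425 CPM in KO. The stages did not overlap in any genotype, and embryo 8 was again the highest WT embryo at both. The rise was 1.80 on the log2 scale in WT (SE 0.28, edgeR adjusted p = 0.000221), 1.65 in KO (SE 0.21, edgeR adjusted p = 0.00163) and 1.73 in Het (SE 0.12, edgeR adjusted p = 1.94e-12). Mcl1 thus changed 3.49-fold in WT, where Bcl2l1 changed 50.5-fold.

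Bcl2 moved the other way, from a low level to almost none. At S1 it had 46, 141, 77 and 43 counts in WT embryos 0, 1, 5 and 8, 116 and 75 counts in Het and 71 and 79 counts in KO. At S3 embryo 0 held 12 counts and the other 3 WT embryos none, the Het embryos held 3 and 0, and the KO embryos 0 and 5. In WT the summed S3 level was 0.0753 of the S1 level, with a 95% interval from 0.0385 to 0.134 (exact binomial, counting error only). The ratio was 0.0376 in Het (0.00768 to 0.112) and 0.0904 in KO (0.0289 to 0.216). The fitted log2 fold change was -3.73 in WT (SE 0.98, edgeR adjusted p = 0.00646), -3.47 in KO (SE 0.95, edgeR adjusted p = 0.0254) and -4.65 in Het (SE 0.63, edgeR adjusted p = 2.76e-07). In KO the call was lost without embryo 2 (-2.51, edgeR adjusted p = 0.25) or embryo 9 (adjusted p = 0.0613), and in Het without embryo 3 (adjusted p = 0.0504) or embryo 4 (-3.74, adjusted p = 0.127). The fitted values were -8.69 in KO without embryo 9 and -8.99 in Het without embryo 3, where the S3 library left held no count, so that these values depend on the small count added in the fit and give no size. Without WT embryo 0, WT held no count of Bcl2 at S3. At S1 Bcl2 was lowest in WT embryos 0 and 8, whose neutrophil marker sums were also the lowest, and the part of those cells in the Bcl2 values was not tested. The labels give Ter119 and CD71 for the sort, and the antibody panel the study lists for foetal liver erythroid cells also holds CD11b, Gr1 and B220, which mark myeloid and B cells. Of the 9157 exon bases of Bcl2, 558 also belong to D630008O14Rik on the opposite strand, and reads there were not counted.

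Bax and Bak1 encode the proteins that open the mitochondrial outer membrane. Bax stood at 82.1, 86.8, 84.7 and 56.3 CPM in WT embryos 0, 1, 5 and 8 at S1, and at 58.9, 87.8, 76.7 and 65.7 CPM at S3. In Het it was 83.5 and 103 CPM at S1 and 83.5 and 76.0 CPM at S3, and in KO 101 and 74.5 CPM at S1 and 83.4 and 59.5 CPM at S3. The stages overlapped in WT and KO, and no difference in Bax passed the test. The log2 fold change was -0.10 in WT (95% interval -0.53 to 0.32), -0.31 in KO (-0.89 to 0.26) and -0.23 in Het (-0.49 to 0.03). With the embryo as a replicate block, since both libraries of an embryo come from 1 animal, the KO value of -0.32 passed (edgeR adjusted p = 0.00999), and in Het values of -0.39 with upper-quartile scaling (edgeR adjusted p = 0.00767) and of -0.35 with no filter on low counts (adjusted p = 0.0158) passed.

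Bak1 was barely present. It held 8, 24, 33 and 18 counts in WT embryos 0, 1, 5 and 8 at S1 and 7, 7, 18 and 2 counts at S3. In Het it held 31 and 19 counts at S1 and 3 and 4 at S3, and in KO 27 and 35 at S1 and 4 and 4 at S3. The counts were lower at S3 in every embryo of each genotype. In CPM the stages were apart in Het and KO and overlapped in WT, where embryo 0 was higher at S3 (0.300 against 0.240 CPM). The log2 fold change was -0.40 in WT (SE 0.52, not called), -1.51 in KO (SE 0.61, edgeR adjusted p = 0.0825) and -1.55 in Het (SE 0.65, edgeR adjusted p = 0.0335). The Het call was lost with DESeq2 (-1.56, adjusted p = 0.209), with all 16 libraries in 1 fit (-1.54, edgeR adjusted p = 0.0666) and without embryo 3 (-1.29) or embryo 4 (-1.84). Bak1 shares 437 of its 2407 exon bases with Ggnbp1 and 177 with Gm50253, both on the opposite strand, so part of its reads was not counted.

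The statements on Bax and Bak1, and the KO value of Bcl2l11 given below, depend on the scaling, and those on Bax in Het and Bcl2l11 in KO also on the filter. TMM centred the comparison of stages on the bulk of genes, whereas scaling by total count alone moved the median log2 fold change of all genes to -1.10 in WT, -0.99 in KO and -1.03 in Het. With that scaling the test called 1869 genes higher and 8530 lower at S3 in WT, in place of 4142 and 4728. Bax then fell by 1.12 in WT (edgeR adjusted p = 0.000229), 1.21 in KO (adjusted p = 0.00326) and 1.21 in Het (adjusted p = 1.57e-07), and Bak1 fell by 1.40 in WT (adjusted p = 0.0291), 2.40 in KO (adjusted p = 0.0162) and 2.51 in Het (adjusted p = 0.00106). Bcl2l1, Mcl1 and Bbc3 stayed higher at S3 in all genotypes, with log2 fold changes of 4.59, 0.75 and 1.25 in WT. Which scaling is nearer to the RNA content of the cells was not tested.

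The 3 BH3-only genes moved in different directions. Bbc3 (PUMA), a target of p53 and of FOXO factors, stood at 3.12, 1.97, 2.83 and 3.24 CPM in WT embryos 0, 1, 5 and 8 at S1, at 3.03 and 2.68 CPM in Het and at 2.79 and 3.06 CPM in KO. At S3 it stood at 13.0035, 11.1, 14.6 and 15.5 CPM in WT, 15.3 and 14.03 CPM in Het and 10.6 and 15.03 CPM in KO. All S3 libraries were above all S1 libraries. Bbc3 rose by 2.29 on the log2 scale in WT (SE 0.21, edgeR adjusted p = 7.16e-06), 2.12 in KO (SE 0.29, edgeR adjusted p = 0.00238) and 2.36 in Het (SE 0.21, edgeR adjusted p = 1.11e-10).

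Bcl2l11 (BIM), the BH3-only gene that cytokine withdrawal is known to induce, was 15.5, 7.80, 13.2 and 19.3 CPM in WT embryos 0, 1, 5 and 8 at S1, and 8.93, 6.75, 8.49 and 8.83 CPM at S3. It was 14.99 and 10.9 CPM in Het at S1 and 9.21 and 8.44 CPM at S3, and 10.3 and 15.02 CPM in KO at S1 and 8.19 and 6.84 CPM at S3. The stages did not overlap in Het and KO, but the S1 library of WT embryo 1 lay below most S3 libraries of WT. Within each WT embryo, Bcl2l11 was lower at S3 than at S1. The log2 fold change was -0.74 in WT (SE 0.25, edgeR adjusted p = 0.0225), -0.56 in Het (SE 0.19, edgeR adjusted p = 0.0122) and -0.77 in KO (SE 0.29, edgeR adjusted p = 0.0675). The WT call was lost without embryo 0 (-0.72, edgeR adjusted p = 0.0926), embryo 5 (-0.78, adjusted p = 0.0828) or embryo 8 (-0.57, adjusted p = 0.0946), and the Het call without embryo 3 (-0.40, adjusted p = 0.538) or embryo 4 (-0.71, adjusted p = 0.284). With all 16 libraries in 1 fit the Het difference was not called (-0.55, edgeR adjusted p = 0.173). The KO difference was called with the embryo as a replicate block (-0.75, edgeR adjusted p = 0.0179), with no filter on low counts (-0.87, adjusted p = 0.0171), with upper-quartile scaling (-0.98, adjusted p = 0.0344) and with scaling by total count (-1.69, adjusted p = 0.00525).

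Pmaip1 (NOXA), whose product binds MCL1, had its widest spread between genotypes at S1. It stood at 3.09, 3.05, 3.49 and 3.32 CPM in WT embryos 0, 1, 5 and 8, at 3.31 and 4.16 CPM in Het and at 5.76 and 5.40 CPM in KO. At S3 it stood at 2.10, 1.51, 2.83 and 1.38 CPM in WT, 1.05 and 1.48 CPM in Het and 1.46 and 1.58 CPM in KO. The S3 libraries were below the S1 libraries in each genotype. Pmaip1 had a log2 fold change of -1.89 in KO (SE 0.31, edgeR adjusted p = 0.00432), -1.55 in Het (SE 0.32, edgeR adjusted p = 9.95e-05) and -0.71 in WT (SE 0.27, edgeR adjusted p = 0.0424). The WT call was lost without embryo 0 (-0.76, edgeR adjusted p = 0.107), embryo 1 (-0.62, adjusted p = 0.129) or embryo 8 (-0.55, adjusted p = 0.132), and without the filter on low counts (-0.74, adjusted p = 0.0768). Without both embryos 0 and 8, neither Pmaip1 (-0.59, edgeR adjusted p = 0.214) nor Bcl2l11 (-0.46, adjusted p = 0.234) was called in WT.

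Fas was near the limit of detection. It held 8, 7, 5 and 15 counts in WT embryos 0, 1, 5 and 8 at S1, 9 and 19 in Het and 14 and 19 in KO. At S3 it held 1, 1, 1 and 3 counts in WT, 1 and 3 in Het and 0 and 5 in KO. The summed S3 level was 0.330 of the S1 level in WT, with a 95% interval from 0.114 to 0.794 (exact binomial, counting error only). It was 0.342 in Het (0.0871 to 0.977) and 0.411 in KO (0.125 to 1.06, an interval that includes no difference). Without the filter on low counts the log2 fold change was -1.48 in WT and was not called (SE 0.80, edgeR adjusted p = 0.162).

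**Figure D2:**
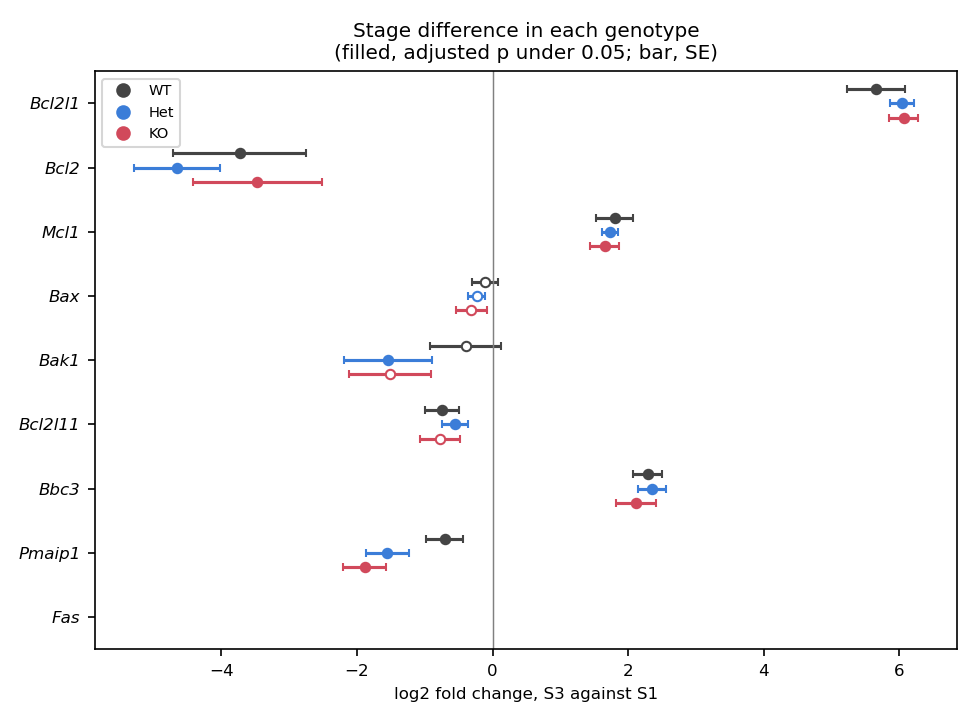
Log2 fold change of S3 against S1 (horizontal axis) for each member tested (vertical axis) in WT, Het and KO, where bars are standard errors and filled points had an adjusted p under 0.05. Bcl2l1 lay at 5.66 to 6.06 and Bcl2 at -4.65 to -3.47 in the 3 genotypes, and Bax near 0.

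The survival genes were then compared with one another, as the share of each in their summed RPKM. At S1, Mcl1 made up 87.5% ± 1.89 (SD, n = 4) of the sum in WT, Bcl2l1 11.8% ± 2.24 and Bcl2 0.620% ± 0.571. At S3, Bcl2l1 made up 67.4% ± 1.91 and Mcl1 32.6% ± 1.91 in WT, and Bcl2 at most 0.0146% in any WT library. The share of Bcl2l1 was 10.1% to 14.9% in the WT libraries at S1 and 65.9% to 70.2% at S3, so the leading survival transcript differed between the stages. In Het it went from between 9.63% and 9.97% to between 66.3% and 70.1%, and in KO from between 8.12% and 8.91% to between 64.4% and 69.3%. The difference in WT was 55.6 percentage points (p = 0.0286, exact two-sided permutation test, n = 4 per stage), which is the smallest p this design allows, and the adjusted p over the 12 share tests was 0.114. Without WT embryos 0 and 8 it was 58.1 points (exact permutation p = 0.333, the smallest possible with 2 libraries per stage). By embryo, with the signs of the 4 differences flipped, the exact p was 0.125, again the smallest possible. Shares taken from counts without the length of the gene moved in the same direction.

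At S1 both KO libraries had a lower share of Bcl2l1 than every WT library, and a higher share of Mcl1, but the differences did not pass the test. The Bcl2l1 share of both Het libraries, at 9.63% and 9.97%, was also below every WT library, the lowest of which was 10.1%. The Bcl2l1 share was 3.32 percentage points lower in KO (p = 0.133, exact permutation test, 2 against 4 libraries, where 0.0667 is the smallest p possible; adjusted p = 0.32). Without WT embryos 0 and 8 it was 1.67 points lower, at 8.51% against 10.2% in the means of 2 and 2 libraries (exact permutation p = 0.333, the smallest possible), and both KO libraries were still below both WT libraries. At S3 the KO libraries overlapped WT, with a Bcl2l1 share 0.606 points lower (exact permutation p = 0.8). Bax made up over 99% of the summed RPKM of Bax and Bak1 in every library, with 99.6% ± 0.175 in WT at S1 and 99.7% ± 0.189 at S3 (exact permutation p = 0.486, n = 4 per stage).

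**Figure D3:**
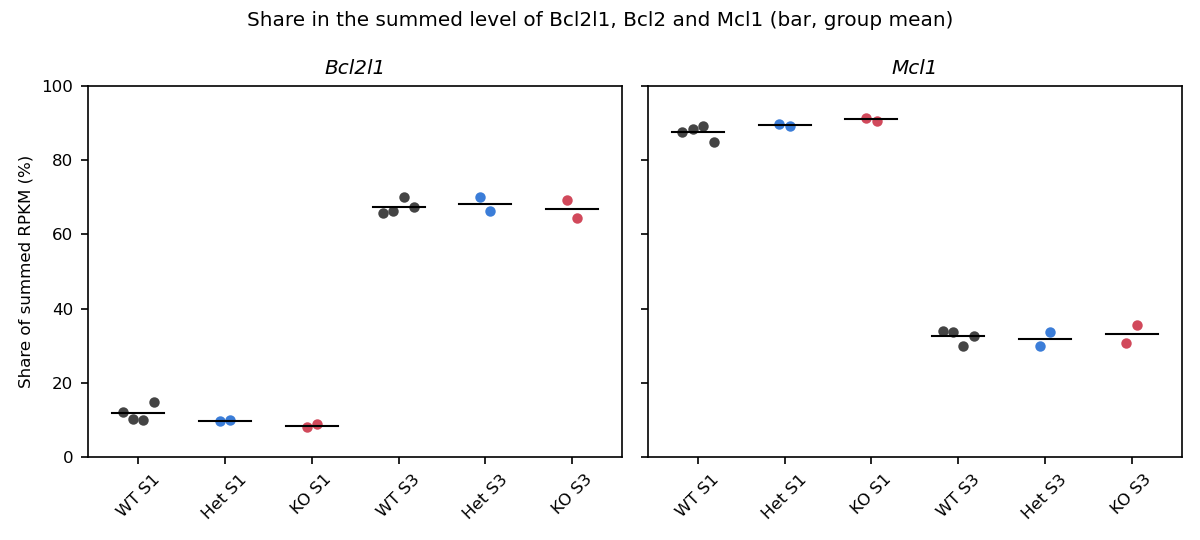
Share of Bcl2l1 (left) and Mcl1 (right) in the summed RPKM of Bcl2l1, Bcl2 and Mcl1 (vertical axis, %) in each library by genotype and stage, with bars for group means. Mcl1 held 84.9% to 91.4% at S1 and Bcl2l1 64.4% to 70.2% at S3 over all genotypes.

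KO and WT libraries were compared within each stage, to see whether loss of Nprl3 moved these genes. At S1 all 9 genes were tested and none was called by edgeR, beside 0.00712% of 14039 genes. DESeq2 called none of the 9 either, with or without sex as a covariate, and 1 had an unadjusted p under 0.05. The KO libraries lay outside the range of the WT libraries for 2 of the 9, Pmaip1 and Fas, where 9.84% of all genes did so. At S3 none of the 6 genes tested was called, beside 0.559% of 11804 genes, none had an unadjusted p under 0.05, and DESeq2 called none. None of the 6 was separated between the groups, beside 18.5% of all genes. The log2 fold changes of the 6 were all below 0, with a median of -0.20 against 0.01 over all genes, but those of Bax (0.07) and Bbc3 (0.03) were above 0 with scaling by total count.

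Pmaip1 was the member with an unadjusted p under 0.05 in KO at S1. Both KO libraries, at 5.76 and 5.40 CPM, were above the highest WT library at 3.49 CPM. The log2 fold change was 0.79 (SE 0.23, unadjusted p = 0.00844, edgeR adjusted p = 1.00), with a 95% interval of 0.27 to 1.32, and 0.75 without WT embryos 0 and 8. Its adjusted p ran from 0.159 to 1.00 over the other settings, so that it failed the correction throughout. At S3 the KO libraries lay inside the WT range (log2 fold change -0.36, SE 0.38).

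Bcl2l1 was lower in KO at S1 by a log2 fold change of -0.76 (SE 0.50, 95% interval -1.93 to 0.40). The difference was -0.05 without WT embryos 0 and 8, whose S1 libraries had the highest Bcl2l1 and the highest erythroid marker sums. At S3 it was -0.32 (SE 0.22, 95% interval -0.82 to 0.18), and the erythroid marker sums were 157295 and 161386 CPM in KO against 172668 to 210104 in WT. Whether these sums have a part in the Bcl2l1 values was not tested.

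Fas at S1 stood at 0.333 and 0.390 CPM in KO against 0.122 to 0.319 CPM in WT, from 14 and 19 counts (log2 fold change 0.78, SE 0.50, edgeR adjusted p = 1.00). For the other members the log2 fold changes in KO ran from -0.18 (Bcl2) to 0.45 (Bak1) at S1. Without WT embryos 0 and 8 they were -0.67 for Bcl2, -0.0229 for Bak1, 0.24 for Mcl1, 0.26 for Bcl2l11, 0.27 for Bbc3, 0.00623 for Bax and 1.30 for Fas, none of them called (edgeR adjusted p from 0.991 to 1.00). With all embryos, Mcl1 stood at -0.27 (95% interval -0.82 to 0.28) at S3. A fold change of 2 in either direction lay outside the 95% interval for Mcl1, Bax, Bcl2l11 and Bbc3 at both stages, while for Bcl2, Bak1 and Fas at S1 a level 2-fold higher in KO lay inside it. The 10 interferon-stimulated genes listed summed to 111 to 230 CPM in KO against 33.8 to 64.6 in WT at S1, and to 1118 to 2534 against 107 to 288 at S3. The 9 neutrophil markers summed to 1573 to 1651 CPM in KO against 120 to 1280 in WT at S1. At S3 the 13 macrophage markers summed to 25.98 to 38.4 CPM in KO against 53.4 to 105.7 in WT, where all 13 had a log2 fold change below 0 and 3 were called lower (median -1.44). All 9 hepatoblast markers were also below 0 at S3, none of them called (median -1.36), with sums of 96.7 to 258 CPM in KO against 209.9 to 940 in WT. The part of these sums in the values above was not tested.

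Het and WT libraries were compared in the same way. At S1 none of the 9 genes was called and none had an unadjusted p under 0.05, beside 0% of 13818 genes called, 589 of which had an unadjusted p under 0.05 and 22 of which were called by DESeq2. At S3 none of the 6 tested was called and none had an unadjusted p under 0.05, beside 0% of 11746 genes called, with 373 at an unadjusted p under 0.05 and 1 called by DESeq2. No member was separated from WT at S1, beside 18.8% of all genes, or at S3, beside 13.2%. With sex as a covariate, DESeq2 called Bcl2l1 lower in Het at S1 (log2 fold change -1.11, adjusted p = 0.0257), beside 815 of 13818 genes. At S3 edgeR and DESeq2 with sex called Mcl1 lower (-0.54, adjusted p = 0.024 and -0.53, adjusted p = 0.00284). Beside it, they called 2124 and 2067 of 11746 genes. Both Het embryos were male, and the male WT embryos were those that stood apart at S1. At S3 the male WT embryos 0 and 8 had the highest Mcl1 of WT, at 450 and 608 CPM against 354 and 367 CPM. Without WT embryos 0 and 8, the Bcl2l1 difference at S1 was 0.10 in the fit without sex. In fits without sex, the 9 erythroid markers had a median log2 fold change of -2.39 in Het at S1, none called. The neutrophil markers summed to 1520 to 1535 CPM in Het at S1, against 120 to 1280 in WT. At S3 all 13 macrophage markers (median -0.41) and all 9 hepatoblast markers (median -1.32) were below 0 in Het, none called. The part of these markers in the Het values was not tested.

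**Figure D4:**
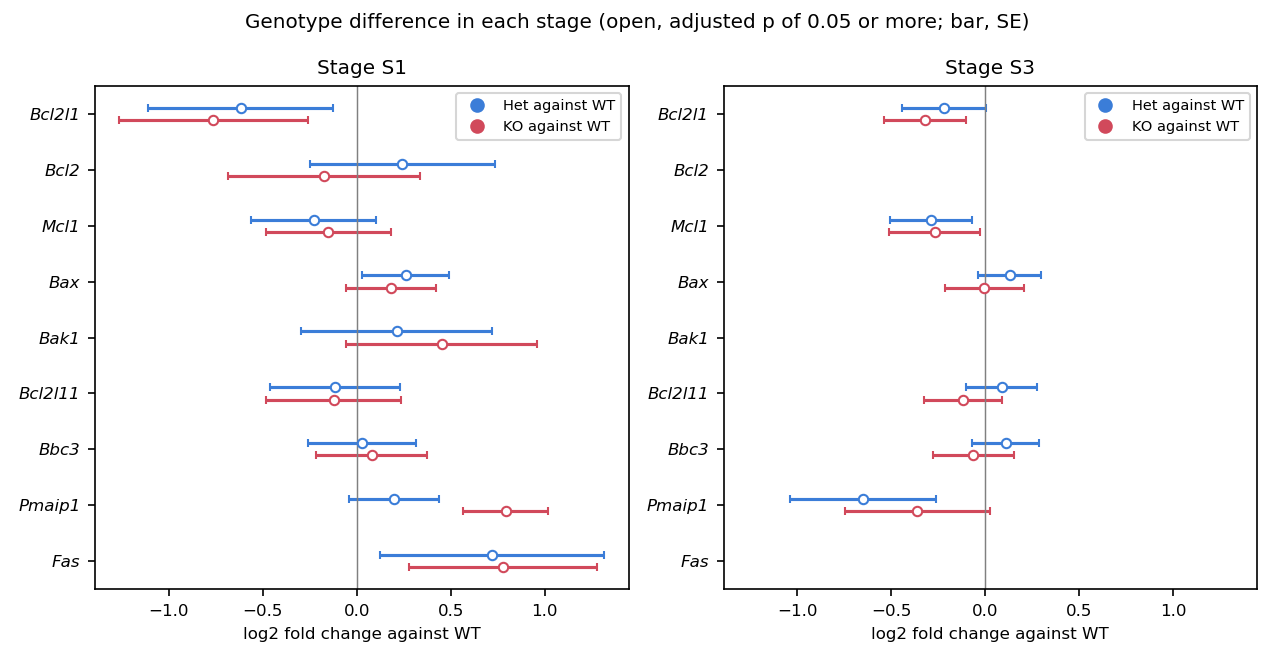
Log2 fold change of Het and KO against WT (horizontal axis) for each member tested at S1 (left) and S3 (right), with standard errors as bars and open points for an adjusted p of 0.05 or more. All points are open, and Pmaip1 in KO at S1 (0.79) lies more than 3 standard errors from 0.

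The KO effect was compared between the stages by an interaction term. None of the 8 genes tested was called by edgeR or DESeq2, beside 0.00742% of 13485 genes, and 1 had an unadjusted p under 0.05. This was Pmaip1, whose KO effect was lower at S3 than at S1 by 1.16 on the log2 scale (SE 0.43, unadjusted p = 0.0196, edgeR adjusted p = 1.00). The term was 0.45 for Bcl2l1 (95% interval -0.82 to 1.73) and -0.06 without WT embryos 0 and 8.

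The wider apoptosis pathway was described with 65 further genes in 9 lists by role. In WT, 54 of them were tested between stages and 39 were called (72.2%), 17 higher and 22 lower at S3, beside the 65.6% of all genes. In KO 34 of 53 were called (64.2%), beside 53% of all genes, and in Het 44 of 52 (84.6%), beside 75.9%. None was called in KO or Het against WT at either stage, where 55 were tested at S1 and 50 at S3. In KO, 0 of them had an unadjusted p under 0.05 at S1, beside 355 of all 14039 genes, and 6 at S3, beside 1006 of 11804. In Het it was 4 at S1, beside 589 of 13818 genes, and 2 at S3, beside 373 of 11746.

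Bcl2l2 (BCL-W), the remaining survival gene tested, was lower at S3 in WT with a log2 fold change of -2.26 (SE 0.53, edgeR adjusted p = 0.00325). It stood at 0.110 ± 0.0545 against 0.570 ± 0.238 CPM (SD, n = 4). In the WT libraries at S3, 3 counts are worth 0.115 to 0.217 CPM, so that its S3 level rests on few counts. Bid, the BH3-only gene that links death receptors to mitochondria, fell by 3.48 (SE 0.22), from 84.6 ± 6.74 to 7.52 ± 2.18 CPM. Bnip3l (NIX), which directs the removal of mitochondria in maturing erythroid cells, rose by 3.44 (SE 0.16), from 194 ± 14.97 to 2103 ± 207 CPM. Of the 7 death receptor genes tested beside Fas, 4 were lower and none higher, where 35% of all genes were called lower and 30.6% higher. Among them were Tnfrsf1a (-1.78, SE 0.39) and Tnfrsf10b (-2.71, SE 0.78). Tnfrsf10b stood at 0 to 0.217 CPM in the WT libraries at S3, a level of a few counts, so the size of its fall is uncertain.

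Of the 12 apoptosome and caspase genes, 6 were lower at S3 in WT and 1 higher, with a median log2 fold change of -0.38. Beside these and the inhibitors of apoptosis below, 35% of all genes were called lower and 30.6% higher. Endog, a mitochondrial nuclease, fell by 2.78 on the log2 scale (SE 0.35). Of the 5 inhibitors of apoptosis, 3 were higher and 1 lower. Birc5 (survivin), which also acts in cell division, rose by 1.92 (SE 0.15), while Birc3 had a log2 fold change of -3.60 (SE 0.23).

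Of 15 genes tested of p53 and its targets, the group that also regulates Bbc3 and Pmaip1, 6 were higher and 5 lower. Over all genes, 30.6% were called higher and 35% lower in this comparison. The largest changes among those higher were Btg2 at 5.07 (SE 0.54) and Trp53inp1 at 3.50 (SE 0.42) on the log2 scale. All 10 genes of survival signalling were called, 6 higher and 4 lower, beside 65.6% of all genes. Kit, the stem cell factor receptor, had a log2 fold change of -8.25 (SE 0.52) and Stat5a, a transducer of the erythropoietin signal, one of -5.21 (SE 0.31).

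In KO against WT, the pathway genes with the smallest p at S3 included Bnip3, Bid, Sesn2 and Cdkn1a, none of them called. Both KO libraries of each were above all WT libraries, where the groups did not overlap for 18.5% of 11804 genes. The genes were picked by their p, so this separation adds no support. Bnip3 had a log2 fold change of 1.26 (SE 0.30, unadjusted p = 0.00239, edgeR adjusted p = 0.157), at 110.3 against 46.5 CPM in the means of 2 and 4 libraries. Bid had 0.90 (edgeR adjusted p = 0.287). At S1 the genes with the smallest p included Tnfrsf1a, Bnip3, Phlda3 and Cflar, with log2 fold changes of 0.48 to 0.81 and an edgeR adjusted p of 1.00 each. In Het they belonged to Bcl2l2, Xiap, Btg2, Bid and Cish at S1 and to Plk2, Cish, Xiap, Trp53inp1 and Ccng1 at S3, with edgeR adjusted p values of 0.905 at S1 and 0.901 at S3.

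**Figure D5:**
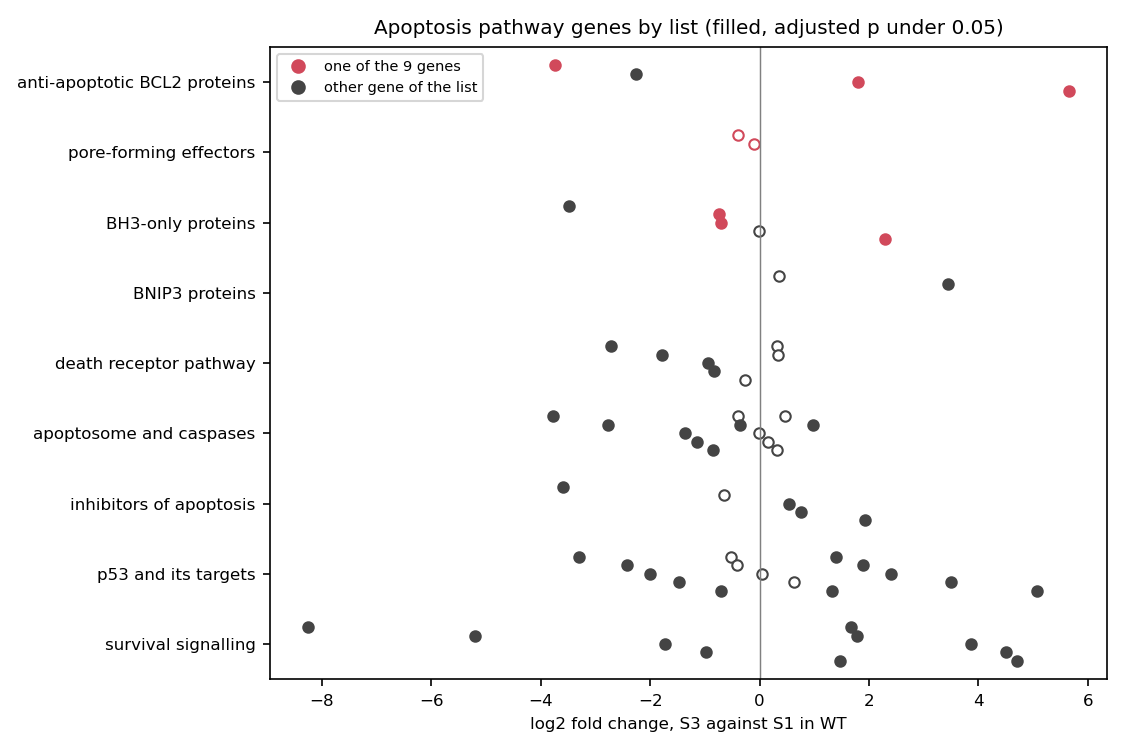
Log2 fold change of S3 against S1 in WT (horizontal axis) for each gene tested of the 9 pathway lists (vertical axis, with points spread within a list to keep them apart), where filled points had an adjusted p under 0.05 and red points are members. The death receptor and caspase lists lie mostly below 0 (medians -0.83 and -0.38), and Bcl2l1 at 5.66 is the highest point of all lists.

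The genes whose log2 CPM followed each member most closely were found over all 16 libraries and 13402 genes. Bcl2l1 was closest to Fech (Pearson's r = 0.999), which encodes the last enzyme of haem synthesis. Mcl1 was closest to Nadk2 and Rmdn3 (r = 0.997 each), and Bbc3 to Fbxw2 (r = 0.996) and Slc49a4 (r = 0.995). Bax was closest to Cycs (r = 0.969), which encodes the cytochrome c that BAX pores release, and to Polr2j (r = 0.967). Bcl2 was closest to Gria3 (r = 0.976) and Cap2 (r = 0.971), Pmaip1 to Gramd1b (r = 0.944) and Pygl (r = 0.934), Bcl2l11 to Fcsk (r = 0.940) and Fbxo10 (r = 0.938), and Bak1 to Niban1 (r = 0.883) and Appl2 (r = 0.880). These values are descriptions, since the points share 8 embryos and fall into 2 stages that set most of the spread.

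The promoters of Bcl2l1, Bcl2, Mcl1, Bax, Bak1, Bcl2l11, Bbc3 and Fas were searched, and that of Pmaip1 was not. The search was made on both strands for the letters AGATAA and TGATAA, which GATA factors such as GATA1 can bind, and for TTCNNNGAA, which STAT factors such as STAT5 can bind. The windows ran from 250 bases before to 50 bases after each start in RefSeq (GRCm38.p6). AGATAA or TGATAA was found in 18.6% of 32851 such windows, and TTCNNNGAA in 8.30%. Of the genes searched, 1 of the 3 windows of Bcl2l1 held AGATAA, 41 bases before the start, and the window of Fas held TTCNNNGAA, 93 bases before it. These windows were otherwise without a match, and a match is a run of letters and not a measured binding site. The surroundings of the match in the gene with the largest stage difference are shown with the motif in capitals.
Bcl2l1, GRCm38.p6 chr2:152828513-152828542, minus strand: attgtgacccaaAGATAAagagagcagagg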

How the data were processed

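RNA-seq counts of sorted S1 and S3 erythroblasts were analysed. The authors mapped reads to mm39 with STAR (2.7.9) and deposited raw counts per gene made with featureCounts (1.6.4), without strand and without reads that overlapped several genes. The deposited table also held 4 library columns that match no sample label, and these were left unused. Symbols were matched through GENCODE for 54749 of 55416 genes.

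Genes with a mean over 10 normalized counts in a comparison were tested with edgeR 4.0.16 (TMM, glmQLFit and glmQLFTest) in R 4.3.3, adjusted over all genes tested, at a threshold of 0.05. The deposited gene lengths gave RPKM. Scripts were tested on simulated data. The members, lists and tests were chosen with earlier results of these data known. Beside the members, the genes named are the 2 largest called stage differences of each list in WT, the 5 smallest p values against WT, and the 2 most similar profiles of each member. Some genes that this rule names are not reported here.

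Libraries of an embryo are paired by animal. Their deviations from the group means correlated at 0.07 to 0.33 in WT, 0.05 in Het and 0.41 in KO over 13402 genes. Alternatives were DESeq2 1.42.0, sex as a covariate, no filter, upper-quartile scaling, globin genes left out of the scaling, all libraries in 1 fit, the newer quasi-likelihood method, the embryo as a replicate block and leaving out each embryo. Scaling by total count and leaving out WT embryos 0 and 8 together (shares included) were added after seeing the data. In KO or Het alone, leaving out an embryo used the pooled spread of all groups, which assumes that the lone sample varies like the others.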

Additional observations from a re-analysis of the deposited data

Results flagged for a closer look

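Bax at S1 was 56.3 CPM in WT embryo 8, apart from the other WT embryos at 82.1 to 86.8 CPM, and this embryo also had the highest Bcl2l1 and Mcl1 of its group. Bcl2 at S3 was 0.515 CPM (12 counts) in WT embryo 0, while the other WT embryos held no count. Both were found among 17 groups of 4 libraries by the gap of 1 library to the next, a rule that by chance flags about 1 in 20 groups of continuous values. For Bcl2 that rate does not apply, since the other 3 libraries are all at 0 and any count in 1 library would be flagged.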

How the results depend on the processing

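The number of genes called in KO against WT depended on the method, that of members did not. At S1 1 gene was called, and 45 with DESeq2, 21 with sex as a covariate, 168 with both, 7 with no filter, 0 with library-size scaling, 2 with all 16 libraries in 1 fit, 2 without WT embryos 0 and 8, and 0 to 2 without 1 embryo. At S3 66 were called, and 259 with DESeq2, 547 with sex, 721 with both, 356 with no filter, 43 with upper-quartile scaling, 104 with all libraries in 1 fit, and 11 to 42 without 1 embryo. In Het at S1 no gene was called, but 22 with DESeq2, 397 with sex, 815 with both (1 of them a member) and 5 without WT embryos 0 and 8. In Het at S3 none was called, but 1 with DESeq2, 2124 with sex (1 a member), 2067 with both (1 a member), 57 with no filter and 0 to 3 without 1 embryo. The interaction called 1 gene, and 12 with DESeq2, 23 with DESeq2 and sex, 3 with no filter and 2 with all libraries. With library-size scaling, 8692 of 13446 genes were called between stages in KO, 1572 higher and 7120 lower at S3. A call was thus common with that scaling, for members as for other genes. Between stages, library-size scaling called 8 members in KO, and without 1 Het embryo 5552 to 5757 genes and 4 members were called in Het, in a fit that took the spread from all groups.

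With the embryo as a replicate block, 9410 genes were called between stages in WT, 9151 in KO and 10038 in Het, and 6, 7 and 7 members.

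These log2 fold changes of members, none of them called, turned their sign, and the cause was not tested. With library-size scaling Bax in KO at S3 was 0.0722, Bbc3 in KO at S3 0.0259 and Bbc3 in Het at S1 -0.0576. Bbc3 in Het at S1 was -0.16 with sex and -0.17 with DESeq2 and sex, and Bcl2l11 in Het at S3 -0.0219 and -0.0091. The interaction of Bcl2l11 was -0.0199 with DESeq2, -0.00671 with DESeq2 and sex, -0.0526 with no filter, -0.0646 with upper-quartile scaling and -0.0396 with the block. Without WT embryos 0 and 8, Mcl1, Bak1 and Bcl2l11 in KO at S1 were 0.24, -0.0229 and 0.26. Bcl2l1, Bcl2, Mcl1, Bak1 and Bcl2l11 in Het at S1 were then 0.10, -0.26, 0.16, -0.26 and 0.27, and the interactions of Bcl2l1 and Bcl2l11 -0.0617 and -0.30.

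Without 1 embryo, KO values at S1 ran from -0.41 to 0.26 for Bcl2, -0.0512 to 0.14 for Bbc3, -0.0517 to 0.37 for Bax, -0.44 to 0.12 for Bcl2l11 and -0.33 to 0.11 for Mcl1. At S3 they ran from -0.28 to 0.22 for Bax, -0.33 to 0.16 for Bbc3 and -0.26 to 0.0113 for Bcl2l11. Het values at S1 ran from -0.11 to 0.10 for Bbc3, -0.37 to 0.0876 for Bcl2l11, -0.0213 to 0.67 for Bcl2 and -0.41 to 0.0137 for Mcl1. Bax between stages in WT ran from -0.16 to 0.0171, and the interaction from -0.37 to 0.40 for Bcl2l11, -4.96 to 5.55 for Bcl2, -0.36 to 0.0693 for Mcl1 and -0.37 to 0.0215 for Bbc3. The KO difference in the share of Bax at S1 ran from -0.21 to 0.0036 percentage points, and at S3 that of Bcl2l1 from -3.07 to 1.86 and of Mcl1 from -1.85 to 3.06. Bcl2, Bak1 and Fas had too few counts at S3 for a test between genotypes.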
